A study of Mus musculus with 29 samples.

Results

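Aged mouse cardiac fibroblasts cultured on a stiff gel that carries aged matrix (ACF+StiffA, 3 libraries) were set against the same kind of cell on a soft gel with aged matrix (ACF+SoftA, 3 libraries). These 6 RNA-seq libraries, of 29 in all, were picked by their titles and by no measured value, and each fold change is StiffA over SoftA. The cells were primary fibroblasts of the heart, taken from aged mice and kept for 48 h on DECIPHER substrates, in which heart matrix and gel stiffness are set separately. All cultured groups shared the 48 h in culture and 20 ng of input RNA. The labels give no strain, no age in weeks or months and no transgene, and they number biological replicates without tying them to animals. Each p-value therefore sets a difference against the scatter of libraries, which need not be that of animals. That scatter was estimated over all 23 cultured libraries. For comparison, the report uses ACF on the young matrix (ACF+StiffY against ACF+SoftY) and fibroblasts of young mice on the aged matrix (YCF+StiffA against YCF+SoftA), with 3 libraries in each group.

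Cardiac fibroblasts build and remodel the collagen matrix of the heart, and they sense its stiffness through integrins, the actin cytoskeleton and the factors YAP, TAZ and MRTF. They also carry the receptors for type I interferon. When interferon binds, the kinases Jak1 and Tyk2 activate STAT factors such as Stat2, which act with Irf9 and switch on genes that hold an interferon-stimulated response element in their promoters. The products of those genes sense viral RNA, tag proteins with Isg15, and stop viral growth, and a low tonic level of them is common in cells that are not infected.

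The 6 libraries held 1266906 to 2798296 counts, which puts 13 to 28 counts behind a value of 10 CPM, and ACF+SoftA library 1 was the shallowest. CPM are counts relative to library totals that were scaled by TMM factors. Genes of fibroblasts were high in all 6 libraries: Col1a1 had 11617, 11827 and 10608 CPM on StiffA, against 11285, 13113 and 11802 CPM on SoftA. The 8 fibroblast markers summed to 21141 to 22974 CPM on StiffA and to 23522 to 26624 CPM on SoftA, and these ranges did not overlap. Markers of macrophages summed to 23.5 to 37.7 CPM on StiffA and 26.9 to 35.8 CPM on SoftA, and 5 of their 14 genes (Tyrobp, Aif1, C1qa, C1qc and Itgam) had no counts. Endothelial markers, 14 genes, overlapped at 215 to 268 CPM on StiffA and 240 to 273 CPM on SoftA. Cardiomyocyte markers, 15 genes with 6 at 0, overlapped at 19.5 to 23.5 CPM on StiffA and 18.9 to 21.4 CPM on SoftA. Markers of pericytes, 10 genes with Vtn and Higd1b at 0, summed to 116 to 124 CPM on StiffA and 147 to 172 CPM on SoftA. Epicardial markers, 10 genes with Krt8 and Krt18 at 0, summed to 145 to 189 CPM on StiffA and 206 to 221 CPM on SoftA. The part of these marker shifts in the results that follow was not tested, and in bulk RNA fewer cells of a type and less RNA per cell cannot be told apart. The library letter follows the substrate (H for StiffA, G for SoftA), so anything done per letter cannot be told apart from stiffness. On the first principal component of the cultured libraries (19% of the variance), ACF+StiffA library 3 lay at 8.41 and the other 5 libraries between 23.4 and 29.7.

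Of 12841 genes tested, 47 changed between StiffA and SoftA at an adjusted p under 0.05 (0.366%; edgeR quasi-likelihood test, Benjamini-Hochberg). The split was uneven: 45 genes fell on the stiff gel (0.35%) and 2 rose (0.0156%), while the median log2 fold change of all genes was -0.0015. At an unadjusted p under 0.05 (edgeR) the split was more even, with 564 genes lower and 412 higher. Among the 45, 25 were counted as genes induced by interferon or that act in its pathway, and the other 20 are the remainder. These 2 groups were drawn up from textbook roles after the values had been seen. The gene model Gm4951, which has an interferon-inducible GTPase name as a synonym, was kept with the 20. Each of the 45 had all 3 StiffA libraries below all 3 SoftA libraries, which was true of 7.2% of all genes tested. The reverse, all 3 StiffA libraries above all 3 SoftA libraries, held for 6.76%. Fold sizes were moderate, and 18 of the 47 changes exceeded 2-fold.

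**Figure D1:**
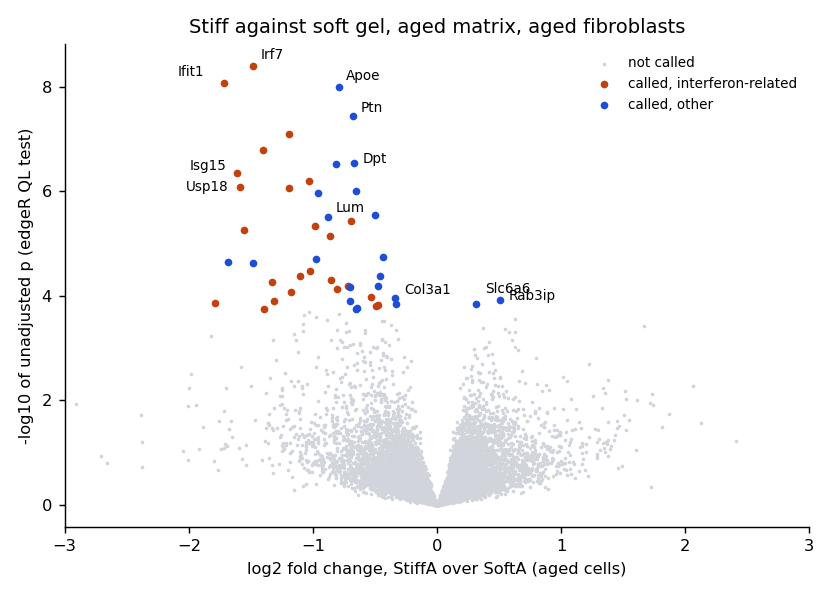
Log2 fold change of each of 12841 genes, StiffA over SoftA in aged cells (x axis), against -log10 of the unadjusted p of edgeR's quasi-likelihood test (y axis). Coloured points are the 47 genes called at an adjusted p under 0.05, orange for interferon-related genes and blue for the others, and 45 of them lie left of 0.

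Leaving out 1 library at a time brought the count to 23, 27 and 26 genes without StiffA libraries 1, 2 and 3, and to 26, 29 and 32 without SoftA libraries 1, 2 and 3. A fit on the 6 libraries alone called 30 genes, all lower, and a fit with no filter on low counts called 109, 31 higher and 78 lower. Of the 47 genes, 19 were called under every alternative: 11 interferon-related genes (Bst2, Gbp3, Ifi44, Ifit1, Ifit3, Irf7, Isg15, Oas1a, Rtp4, Stat2 and Usp18) and 8 others (Apoe, Cpxm1, Dpt, Fgl2, Gucy1a1, Htra3, Lum and Ptn).

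The interferon genes are shown first by their promoters. The interferon-related windows printed here all hold 2 or 3 matches, and genes of the group without a match are named below. The windows run from 250 bases before to 50 bases after the RefSeq start (GRCm38.p6, an older build than the mm39 of the counts), 5′ to 3′ on the gene's strand. Capitals mark matches to GAAANNGAAA on either strand (TTTCNNTTTC), the core of the interferon-stimulated response element, and neighbouring matches can overlap.
Ifit1 (chr19:34640639-34640938, plus strand): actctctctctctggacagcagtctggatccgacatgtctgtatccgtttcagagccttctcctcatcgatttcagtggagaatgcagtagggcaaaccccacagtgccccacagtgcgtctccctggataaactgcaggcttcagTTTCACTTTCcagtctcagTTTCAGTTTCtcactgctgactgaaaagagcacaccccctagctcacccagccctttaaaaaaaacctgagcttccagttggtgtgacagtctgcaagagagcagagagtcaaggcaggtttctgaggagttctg
Isg15 (chr4:156200769-156201068, minus strand): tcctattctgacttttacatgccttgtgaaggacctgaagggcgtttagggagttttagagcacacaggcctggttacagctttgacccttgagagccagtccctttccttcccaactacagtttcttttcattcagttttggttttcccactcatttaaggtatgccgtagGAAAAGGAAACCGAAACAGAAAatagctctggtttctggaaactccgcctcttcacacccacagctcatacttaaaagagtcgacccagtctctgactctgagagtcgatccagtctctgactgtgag
Ifit3 (chr19:34583279-34583578, plus strand): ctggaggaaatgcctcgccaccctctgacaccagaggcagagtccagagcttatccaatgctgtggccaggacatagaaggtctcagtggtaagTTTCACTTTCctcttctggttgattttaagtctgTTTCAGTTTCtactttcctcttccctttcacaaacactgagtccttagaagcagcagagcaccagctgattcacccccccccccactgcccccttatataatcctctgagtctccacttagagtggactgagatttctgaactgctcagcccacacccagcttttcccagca
Oas1a (chr5:120907476-120907775, minus strand): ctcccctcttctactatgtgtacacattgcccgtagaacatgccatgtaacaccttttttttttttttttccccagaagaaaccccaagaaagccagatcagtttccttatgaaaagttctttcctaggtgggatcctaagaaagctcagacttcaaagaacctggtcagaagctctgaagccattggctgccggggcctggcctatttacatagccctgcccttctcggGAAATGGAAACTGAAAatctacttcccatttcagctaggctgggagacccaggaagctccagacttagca
Bst2 (chr8:71537423-71537722, minus strand): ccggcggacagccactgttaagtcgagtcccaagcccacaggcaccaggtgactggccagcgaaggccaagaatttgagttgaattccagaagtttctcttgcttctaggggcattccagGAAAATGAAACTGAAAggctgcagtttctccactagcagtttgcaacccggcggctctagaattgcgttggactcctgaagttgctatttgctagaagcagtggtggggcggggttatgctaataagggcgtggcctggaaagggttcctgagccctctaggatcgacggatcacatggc
Dpt, from the other group, is shown for contrast and has no match (chr1:164796413-164796712, plus strand): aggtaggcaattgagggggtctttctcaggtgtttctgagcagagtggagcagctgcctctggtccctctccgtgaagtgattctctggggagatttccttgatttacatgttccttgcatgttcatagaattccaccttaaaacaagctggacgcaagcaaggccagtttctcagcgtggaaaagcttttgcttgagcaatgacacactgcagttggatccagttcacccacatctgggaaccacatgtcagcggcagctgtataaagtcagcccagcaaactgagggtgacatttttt

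The Ifit1 matches begin 104 and 85 bases before the start, those of Ifit3 at 156 and 122, and those of Bst2 at 130 and 124. In Isg15, 3 overlapping matches begin 78, 72 and 66 bases before the start. In Oas1a the 2 matches begin 20 and 14 bases before it. The motif was found in 13 of the 21 interferon-related genes that the RefSeq table holds (61.9%) and in 0 of the 15 others that it holds, against 1079 of all 27025 genes in the table (3.99%). Irf7, Ifi44, Cmpk2, Oasl2, Rnf213, Sp100, Ube2l6 and H2-K1 had no match. Because the groups were sorted by textbook roles, these shares are a description. By window, 1131 of 32851 promoters hold it (3.44%). A match is a description of the sequence and does not show that a factor binds there, and a window without these letters says nothing about a factor.

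Among the transcription factors of the pathway, Irf7 and Stat2 fell on StiffA. Irf7, the factor that drives type I interferon genes and is itself induced by interferon, had 25.0, 27.9 and 28.2 CPM on StiffA, against 83.1, 66.6 and 78.4 CPM on SoftA. The groups were far apart, and the log2 fold change was -1.48 ± 0.17 (SE; adjusted p = 4.37e-05). Stat2 had 143, 167 and 137 CPM on StiffA and 273, 225 and 227 CPM on SoftA (log2 fold change -0.69 ± 0.12, adjusted p = 0.00278, edgeR). Irf9, which acts with Stat2, lay lower in all 3 StiffA libraries than in any SoftA library but did not pass the test (-0.54 ± 0.16, adjusted p = 0.195, edgeR). Irf3, which is activated by phosphorylation rather than induced, stood at -0.09 ± 0.15.

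Among the effectors, Ifit1, which blocks translation of viral RNA, had 36.5, 40.6 and 52.7 CPM on StiffA, against 172, 111 and 144 CPM on SoftA. Its log2 fold change of -1.71 ± 0.20 (adjusted p = 4.37e-05, edgeR) was the largest among called genes of at least 10 CPM, and the lowest SoftA library lay above 2 times the highest StiffA one. Its neighbours on chromosome 19 in the same family followed, Ifit3 at -1.03 ± 0.16 (adjusted p = 0.000806) and Ifit3b at -1.11 ± 0.22 (adjusted p = 0.0197). The 2 are close copies, so reads could be split between them. The Ifit3b call was lost in 6 of 13 alternatives.

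Isg15 encodes a ubiquitin-like protein that is attached to other proteins during the response. It had 27.5, 21.4 and 14.6 CPM on StiffA and 72.8, 50.1 and 75.4 CPM on SoftA (log2 fold change -1.61 ± 0.24, adjusted p = 0.000647, edgeR). Usp18, the protease that removes Isg15 and damps the interferon receptor, had 16.3, 21.0 and 18.4 CPM on StiffA and 57.8, 47.4 and 63.1 CPM on SoftA (-1.59 ± 0.24, adjusted p = 0.000929). Both genes were separated by group in every library. Ube2l6, which conjugates Isg15, fell by less, at -0.53 ± 0.11 (adjusted p = 0.0385), a call lost in 7 of 13 alternatives.

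Several genes that act on foreign nucleic acid fell as well. Oas1a and Oas2 make the oligoadenylates that switch on RNase L. Oas1a had 18.4, 17.0 and 15.5 CPM on StiffA against 42.7, 40.1 and 35.5 CPM on SoftA (log2 fold change -1.19 ± 0.18, adjusted p = 0.000929, edgeR), and Oas2 changed by -1.33 ± 0.27 (adjusted p = 0.0241). Zbp1, which binds Z-form nucleic acid, changed by -1.17 ± 0.25 (adjusted p = 0.0327), Ddx60, a helicase of the RNA sensing pathway, by -1.31 ± 0.29 (adjusted p = 0.0422), and Ifih1, the sensor of long double-stranded RNA, by -0.80 ± 0.17 (adjusted p = 0.0295). Ddx58, which encodes the sensor RIG-I, did not pass the test (-0.19 ± 0.11, adjusted p = 0.736), and neither did the adaptors Mavs (-0.0037 ± 0.16) and Sting1 (0.04 ± 0.13). Oas2 and Ddx60 are low genes, at 3.3 to 7.2 and 6.9 to 15.5 CPM on StiffA, and both lost their call in 6 of 13 alternatives. Zbp1 and Ifih1 each lost theirs in 5 of 13.

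Bst2, the membrane protein that tethers budding virus, had 68.4, 77.6 and 67.8 CPM on StiffA and 122, 131 and 167 CPM on SoftA (log2 fold change -0.98 ± 0.17, adjusted p = 0.00328, edgeR). The guanylate-binding GTPase Gbp3 had 36.2, 40.2 and 33.4 CPM on StiffA and 100.5, 70.5 and 84.4 CPM on SoftA (-1.19 ± 0.16, adjusted p = 0.000208). Neither gene showed overlap between the groups. Rtp4 (-1.41 ± 0.20), Ifi44 (-1.56 ± 0.27) and Slfn8 (-1.39 ± 0.32), all induced by interferon, complete the 12 largest falls among genes of at least 10 CPM, the gene model Gm4951 (-1.49) aside, with adjusted p-values of 0.000351, 0.0037 and 0.0493. Oasl2, Rnf213, Gbp2, Parp11 and Sp100 fell by 1.03, 0.85, 0.71, 0.86 and 0.49 on the log2 scale. Their calls were lost in 2, 5, 5, 3 and 9 of 13 alternatives, and that of Slfn8 in 7. Cmpk2, a mitochondrial nucleotide kinase induced by interferon, had 2.9, 3.3 and 4.7 CPM on StiffA and 18.2, 14.3 and 6.7 CPM on SoftA (-1.79 ± 0.40, adjusted p = 0.0444, edgeR). That rested on 8, 9 and 10 counts on StiffA, and SoftA library 3 came close to these levels. The Cmpk2 call was lost in 7 of 12 alternatives.

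A list of 31 interferon-stimulated genes, 29 of them tested, holds 16 of the 25. It was chosen with earlier results of these data known, so its counts are a description. On StiffA 16 of the 29 fell and 0 rose, where 0.35% of all genes tested fell. Of the 29, 28 had a fold change below 0, and the median was -0.979, beside -0.0015 over all genes. The list's summed level was 1089, 1172 and 1114 CPM on StiffA, against 2178, 1790 and 2025 CPM on SoftA. The exception was Ifi27, at 146, 166 and 138 CPM on StiffA and 127, 154 and 166 CPM on SoftA. The receptor genes Ifnar1 (0.06 ± 0.10) and Ifnar2 (-0.32 ± 0.14, adjusted p = 0.605) and the kinases Jak1 (0.10 ± 0.08) and Tyk2 (-0.11 ± 0.15) did not pass the test. Interferon transcripts themselves were at the limit of the depth: of 21 ligand genes in the table, 20, Ifnb1 and Ifng among them, had no counts in any of the 23 cultured libraries, which allows up to 1.09 to 2.37 CPM in these 6 libraries (3 counts, counting error only). Of further lists drawn up after the values had been seen, 0 of 8 receptor and kinase genes, 2 of 14 sensor and adaptor genes and 2 of 15 STAT and IRF genes fell, and 0 rose. Leaving out SoftA library 1 or StiffA library 1 brought the 16 falls to 10 each, and leaving out StiffA library 3 to 11.

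**Figure D2:**
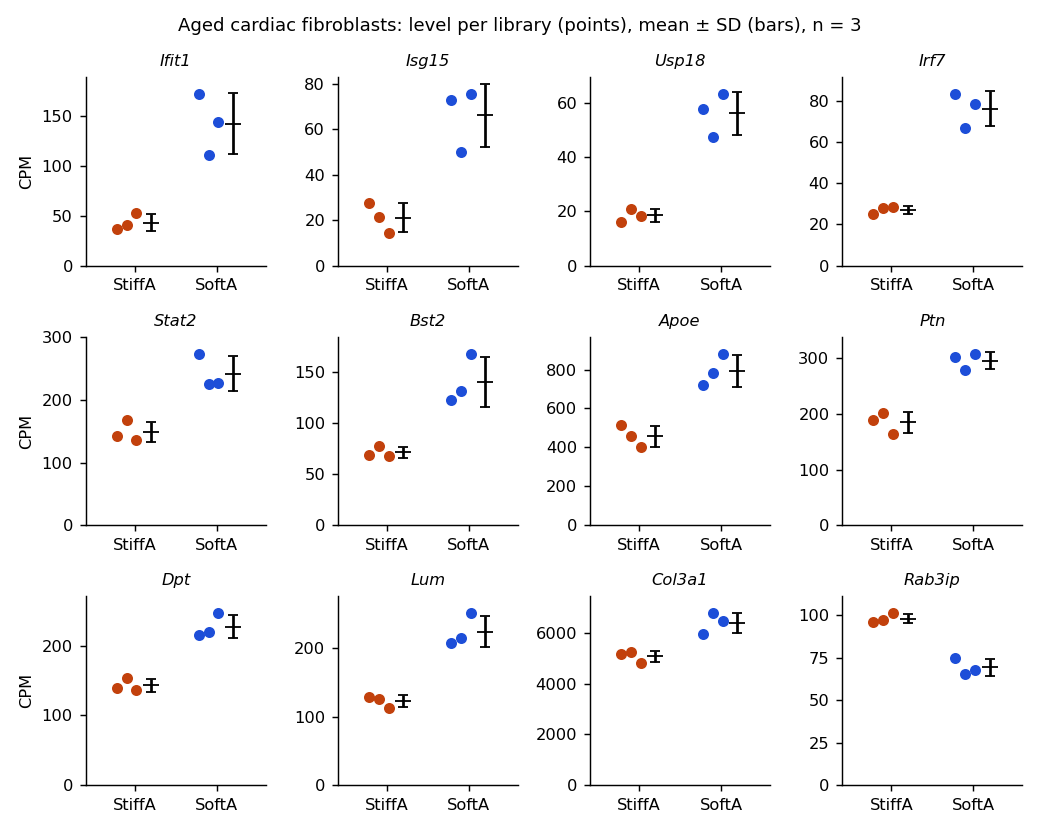
CPM of 12 genes in each library of aged cells (points), StiffA left and SoftA right, with mean ± SD (n = 3). The first 11 genes are lower on StiffA with no overlap, such as Irf7 at 27.0 ± 1.8 CPM on StiffA and 76.0 ± 8.5 CPM on SoftA, and Rab3ip is higher.

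Antigen presentation by class I molecules is a further target of interferon. H2-K1, a class I heavy chain, fell on StiffA, with 166, 168 and 137 CPM there and 208, 201 and 249 CPM on SoftA (log2 fold change -0.48 ± 0.11, adjusted p = 0.0446, edgeR). It was the 1 call among 14 class I genes tested, and it was lost in 8 of 13 alternatives. All 14 had fold changes below 0, from -0.80 to -0.12, with a median of -0.347. The light chain B2m had 346, 347 and 338 CPM on StiffA and 419, 386 and 719 CPM on SoftA, where library 3 stood far above the other two (-0.57 ± 0.23, adjusted p = 0.579). Mouse class I genes are close copies of each other, so the counts of a single one are uncertain.

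The other 20 lower genes are described by their single roles, since no list covers them as a group. Apoe, the lipid carrier, had 513, 457 and 404 CPM on StiffA, against 718, 781 and 880.5 CPM on SoftA (log2 fold change -0.79 ± 0.09, adjusted p = 4.37e-05, edgeR). Ptn, the heparin-binding growth factor pleiotrophin, had 189, 201 and 165 CPM on StiffA and 301, 278 and 308 CPM on SoftA (-0.68 ± 0.09, adjusted p = 0.000117). Dpt, or dermatopontin, which binds decorin and collagen, had 139, 153 and 137 CPM on StiffA and 216, 219 and 246 CPM on SoftA (-0.67 ± 0.10, adjusted p = 0.000475). In all of these, replicates lay close together and the groups far apart.

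Lum, or lumican, is a small proteoglycan that spaces collagen fibrils, and it had 128, 126 and 112 CPM on StiffA and 207, 215 and 251 CPM on SoftA (log2 fold change -0.88 ± 0.15, adjusted p = 0.00255, edgeR). Podn, or podocan, of the same family, fell by 0.65 on the log2 scale (adjusted p = 0.0492), a call lost in 8 of 13 alternatives. These were the 2 calls among 20 proteoglycan and hyaluronan genes, of which 15 were below 0 (median -0.223). Decorin, Dcn, had 1793, 1837 and 1683 CPM on StiffA and 2095, 2195 and 2567 CPM on SoftA, without passing the test (-0.37 ± 0.10, adjusted p = 0.175).

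Among collagens the call was Col3a1, a fibrillar collagen that assembles with type I collagen. It had 5171, 5249 and 4826 CPM on StiffA, against 5985, 6784 and 6469 CPM on SoftA (log2 fold change -0.34 ± 0.07, adjusted p = 0.039, edgeR). Col1a1 (-0.09 ± 0.07) and Col1a2 (-0.05 ± 0.06), the chains of type I collagen, did not pass, and their groups overlapped. Of 8 fibrillar collagens, 7 were below 0 with a median of -0.072. The Col3a1 call was lost in 8 of 13 alternatives.

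Fbln1, an elastic fibre and basement membrane glycoprotein, fell with 180, 182 and 161 CPM on StiffA and 247, 232 and 231 CPM on SoftA (log2 fold change -0.44 ± 0.08, adjusted p = 0.0109, edgeR). Mmp2, the gelatinase, had 423, 426 and 461 CPM on StiffA and 591, 555 and 658 CPM on SoftA (-0.46 ± 0.09, adjusted p = 0.0197). Of 18 matrix proteases, Mmp2 alone fell and 0 rose, and the median was -0.182. The calls of Fbln1 and Mmp2 were lost in 4 and 5 of 13 alternatives. Htra3, a secreted serine protease, had 39.4, 43.5 and 34.8 CPM on StiffA and 77.5, 79.0 and 73.9 CPM on SoftA (-0.96 ± 0.15, adjusted p = 0.000981). Adamts15, which cleaves versican, was the steepest of the group at -1.69 ± 0.32 (adjusted p = 0.0124), at a mean of 3.31 CPM on StiffA and 10.6 CPM on SoftA. Its call was lost in 4 of 12 alternatives.

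Further lower genes have other roles. Gucy1a1, a subunit of the nitric oxide receptor guanylate cyclase, had 165, 180 and 155 CPM on StiffA and 283, 243 and 264 CPM on SoftA (log2 fold change -0.65 ± 0.10, adjusted p = 0.000973, edgeR). Igfbp4, which binds insulin-like growth factors, fell by 0.48 on the log2 scale (adjusted p = 0.0268), and Fgl2, a fibrinogen-like protein, by 0.82 (adjusted p = 0.000475). Dpep1, a dipeptidase of resident fibroblasts, fell by 0.33 (adjusted p = 0.0446) and was the 1 call among 23 resident fibroblast genes. That call was lost in 9 of 13 alternatives, and those of Igfbp4 and Steap4 in 7 and 6. Of the 23 genes, 21 lay below 0, with a median of -0.314. Steap4, a metalloreductase that also marks pericytes, fell by 0.70 (adjusted p = 0.0276). The rest were Cpxm1, Emb, Sparcl1, Olfml1 and the gene model Gm4951, at -0.50, -0.97, -0.70, -0.65 and -1.49. The calls of Emb, Sparcl1, Olfml1 and Gm4951 were lost in 2, 8, 9 and 3 of 13 alternatives. RefSeq lists Ifgga2, a name of the interferon-inducible GTPases, as a synonym of Gm4951, which was counted with the 20 under its provisional name.

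Only 2 genes rose on the stiff gel, and neither call was firm. Rab3ip, an exchange factor for Rab GTPases in membrane traffic, had 96.2, 97.1 and 101 CPM on StiffA and 75.2, 65.5 and 68.0 CPM on SoftA (log2 fold change 0.51 ± 0.11, adjusted p = 0.0416, edgeR). Slc6a6, the taurine transporter, had 830, 776 and 762 CPM on StiffA and 650, 657 and 599 CPM on SoftA (0.31 ± 0.07, adjusted p = 0.0444). The calls were lost in 9 and 10 of 13 alternatives. The next 4 by p, none of which passed, were the RNA-binding protein gene Larp4 (0.63 ± 0.15, adjusted p = 0.0689), the ubiquitin-conjugating enzyme gene Ube2g2 (0.37 ± 0.09), the mitotic kinase gene Plk1 (0.55 ± 0.13) and the lactate exporter gene Slc16a3 (0.58 ± 0.14).

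No single gene of the lists that textbooks tie to stiffness passed the test in these cells, while the summed levels of some lists lay higher on StiffA. Among 15 contractile and stress fibre genes, 26 actin and SRF/MRTF genes, 16 integrin subunits and 26 YAP and TAZ genes, 0 were called by edgeR, and the medians were 0.078, 0.076, 0.021 and 0.108. At an unadjusted p under 0.05 these lists had 1, 3, 1 and 4 genes higher and 1, 1, 3 and 0 lower. Fold changes above 0 were seen in 11, 20, 8 and 18 of their members. The actin and SRF/MRTF genes summed to 17949 to 18224 CPM on StiffA and 15850 to 16631 CPM on SoftA. The YAP and TAZ genes summed to 6938 to 7138 CPM on StiffA and 6172 to 6726 CPM on SoftA. Neither sum overlapped, and each had an exact p of 0.1 (permutation test), the smallest that 3 against 3 allows. Many other lists separated too, at the same exact p of 0.1 (permutation test). Sums of cholesterol synthesis, mitosis and replication, ATF4 and amino acid, ERK feedback and immediate early genes were higher on StiffA. Those of lysosome, complement, NRF2 and antioxidant, resident fibroblast and fibrillar collagen genes were lower on StiffA. Separation of a sum was therefore not particular to the lists tied to stiffness. A sum follows its most abundant members. The sums of the contractile genes (8788 to 9408 CPM on StiffA, 8325 to 8838 CPM on SoftA) and of the integrin subunits (1701 to 2252 CPM on StiffA, 1744 to 1975 CPM on SoftA) overlapped. Acta2, the smooth muscle actin of myofibroblasts, had 1286, 1262 and 1114 CPM on StiffA and 1029, 1113 and 1312 CPM on SoftA (0.08 ± 0.12). Ccn2, a target of YAP and of TGF-beta, had 91.5, 77.6 and 75.3 CPM on StiffA and 46.7, 61.3 and 79.5 CPM on SoftA (0.35 ± 0.15, adjusted p = 0.597), with overlap. Postn, or periostin, had 44.9, 46.0 and 46.6 CPM on StiffA and 53.8, 50.1 and 86.3 CPM on SoftA (-0.49 ± 0.19, adjusted p = 0.545).

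Of 21 genes of TGF-beta signalling, 0 were called (median -0.003). Of 31 genes of mitosis and replication, 0 were called, 26 were above 0, and the median was 0.136. Of 14 ERK feedback genes, 0 were called and the median, 0.280, was the highest of the lists in the plot of list medians, with Spry4 at 0.49 ± 0.17 (adjusted p = 0.392). Complement genes had 0 of 13 called and all 13 below 0 (median -0.288). Lysosome genes had 0 of 23 called and 21 below 0. Pdgfra (-0.05 ± 0.09), Cdkn1a (0.04 ± 0.10), Il6 (-0.20 ± 0.16) and Nr4a1 (-0.13 ± 0.28) did not pass.

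**Figure D3:**
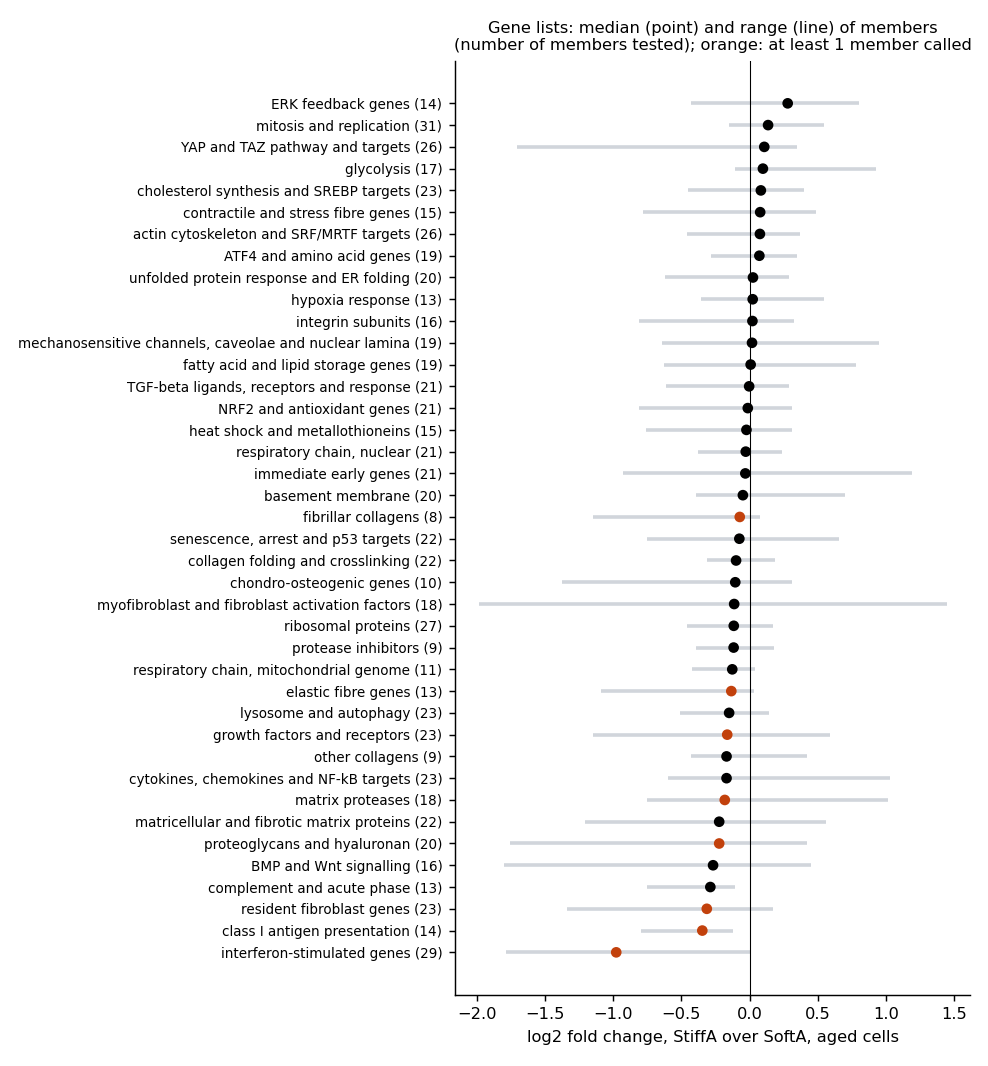
Log2 fold change, StiffA over SoftA in aged cells (x axis), for the gene lists shown, each with at least 8 members tested: point, median; line, lowest to highest member. Interferon-stimulated genes have the lowest median, -0.979, and lists with at least 1 called member are orange.

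The stiff and soft gels were also compared on young matrix, with no library in common. There aged cells had 7 called genes, all lower (0.0545%). Of the 25 interferon-related genes, 24 were below 0 on young matrix as well and 4 fell: Ifit1 (-1.97 ± 0.20), Ifit3 (-1.42 ± 0.16), Ifit3b (-2.09 ± 0.22) and Cmpk2 (-3.34 ± 0.39), each with an adjusted p of at most 2.13e-05. The remaining falls were Iigp1 and Igtp, GTPases induced by interferon, and the chemokine gene Ccl2. The 7 calls became 4 without SoftY library 3, StiffY library 2 or StiffY library 3. Over the 25 genes the median on young matrix was -0.602, and on aged matrix -1.174, the value for which they were chosen. Ifit1 had 44.6, 49.6 and 45.3 CPM on StiffY and 128, 188 and 232 CPM on SoftY, and Irf7 had 52.6, 44.4 and 37.2 CPM on StiffY and 61.6, 65.8 and 75.5 CPM on SoftY (-0.60 ± 0.16, adjusted p = 0.641, edgeR). For none of the 25 did the difference between matrices pass its own test (13 had an unadjusted p under 0.05), and that difference ran from -0.99 ± 0.38 for Ifi44 to 1.55 ± 0.60 for Cmpk2.

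On young matrix the other 20 lower genes showed no common direction. Of these 20 genes, 8 were below 0 and 12 above, 0 were called, and the median was 0.042. The difference between matrices, aged over young, passed the test for Htra3 (-1.31 ± 0.21), Fgl2 (-1.03 ± 0.16) and Apoe (-0.86 ± 0.13), each with an adjusted p of 0.00455 (edgeR), and these were its only calls among all genes (0.0234%). Since the 20 genes were chosen for low values in libraries that enter this difference, the count itself is a description. Htra3 had 99.9, 121 and 93.4 CPM on StiffY, against 71.0, 81.0 and 93.7 CPM on SoftY. Apoe had 1441, 1741 and 1473 CPM on StiffY, against 1396, 1477 and 1567 CPM on SoftY, where the groups overlapped. Both matrices' folds came from separate libraries, and across 9225 genes of at least 10 CPM they had a Pearson r of 0.027 and a Spearman coefficient of -0.045, a description across genes that are not independent.

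**Figure D4:**
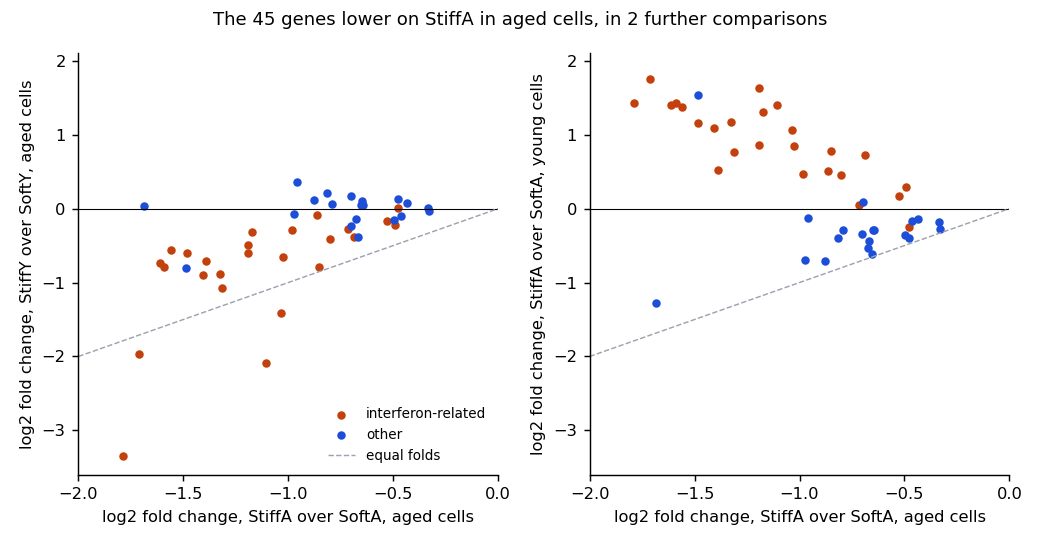
The 45 genes lower on StiffA in aged cells, with that log2 fold change on the x axis and the fold change of the same genes in 2 further comparisons on the y axes: StiffY over SoftY in aged cells (left) and StiffA over SoftA in young cells (right), with a dashed line at equal folds. Of the 25 interferon-related genes (orange), 24 lie below 0 on the left and 24 above 0 on the right, while 18 of the 20 others (blue) lie below 0 on the right.

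In young cells the same pair of substrates moved the interferon genes the other way. YCF on StiffA against YCF on SoftA, again with no shared library, called 27 genes, 16 higher (0.125%) and 11 lower (0.0857%). Of the 25 interferon-related genes, 24 were above 0 and 11 rose, with a median of 0.859. Ifit1 had 107, 98.5 and 127 CPM on StiffA and 33.1, 32.6 and 33.3 CPM on SoftA in young cells, a log2 fold change of 1.75 ± 0.22 (adjusted p = 0.000385, edgeR). Irf7 had 70.0, 56.7 and 80.3 CPM on StiffA and 26.9, 26.4 and 41.1 CPM on SoftA (1.16 ± 0.18, adjusted p = 0.00164). Aged cells had less of both transcripts on the stiff gel than on the soft gel, and young cells more. Marker sums of some other cell types also separated the young-cell groups. Macrophage markers (14 genes, Aif1 at 0) summed to 30.8 to 38.3 CPM on StiffA and 43.5 to 69.8 CPM on SoftA, and cardiomyocyte markers (15 genes, 9 at 0, Myh6 among them) to 22.1 to 32.4 CPM on StiffA and 34.6 to 48.1 CPM on SoftA. Pericyte markers (10 genes, Vtn and Higd1b at 0) summed to 136 to 153 CPM on StiffA and 164 to 205 CPM on SoftA, and epicardial markers (10 genes, Krt8 at 0) to 175 to 199.8 CPM on StiffA and 228 to 249.7 CPM on SoftA. All of these were lower on StiffA, where the interferon genes were higher, and their part in the result was not tested.

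That reversal was tested as a difference of the stiffness effect, aged minus young cells. It called 44 genes (0.343%), of which 43 had the lower fold in aged cells (0.335%) and 1 the higher (0.00779%). Among the 29 listed interferon-stimulated genes 21 differed, all lower, with a median difference of -1.701, beside 0.008 for all genes. The list was chosen with earlier results of these data known, so that count is a description. The difference was -3.46 ± 0.30 for Ifit1 (adjusted p = 2.19e-07, edgeR), -2.65 ± 0.24 for Irf7 (adjusted p = 3.9e-07) and -3.02 ± 0.36 for Isg15 (adjusted p = 1.91e-05). Irf9, which passed in neither cell age alone, passed here (-1.16 ± 0.23, adjusted p = 0.0132).

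In young cells the other 20 lower genes lay mostly below 0. There 18 were below 0 and 4 fell: Ptn (-0.53 ± 0.08), Dpt (-0.44 ± 0.09), Gucy1a1 (-0.62 ± 0.10) and Lum (-0.71 ± 0.14). The median was -0.322. Across 9225 genes the folds of aged and young cells on aged matrix had a Pearson r of 0.235 and a Spearman coefficient of 0.312. Young-cell libraries carry the same letters as the aged-cell ones (H for StiffA, G for SoftA), and those on young matrix carry F and E. Anything done per letter would be shared by both cell ages on aged matrix. It cannot be told apart from stiffness, and its part was not tested. Of the 20, only Gm4951 had a difference between cell ages that passed (-3.02 ± 0.44, adjusted p = 0.000424, edgeR), which does not show that the rest act alike. Gm4951 stood at 1.54 ± 0.34 in young cells and -0.80 ± 0.27 on young matrix. Without it, a choice made after its values were seen, 18 of 19 genes were below 0 in young cells (median -0.349), and on young matrix 7 were below and 12 above 0 (median 0.051).

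Library 3 of YCF+SoftA stood apart, at 25.6 on the first principal component, where the other two lay at -14.9 and -25.3, and YCF+StiffA library 3 lay at 4.57, where its others lay at -24.1 and -23.0. Without it the interferon-related genes had 9 calls in young cells in place of 11, and the listed genes had 9 both with and without it. The difference between cell ages then called 20 of the 29 listed genes. The 27 calls in young cells became 10, 17 and 17 without StiffA libraries 1, 2 and 3, and 15, 25 and 17 without SoftA libraries 1, 2 and 3. With the 6 young-cell libraries fitted alone, 1 gene was called in place of 27, and 19 of the 25 interferon-related genes had an unadjusted p under 0.05, all higher. A fit of the 12 libraries of both ages alone called 19 of the 27 listed genes it tested.

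**Figure D5:**
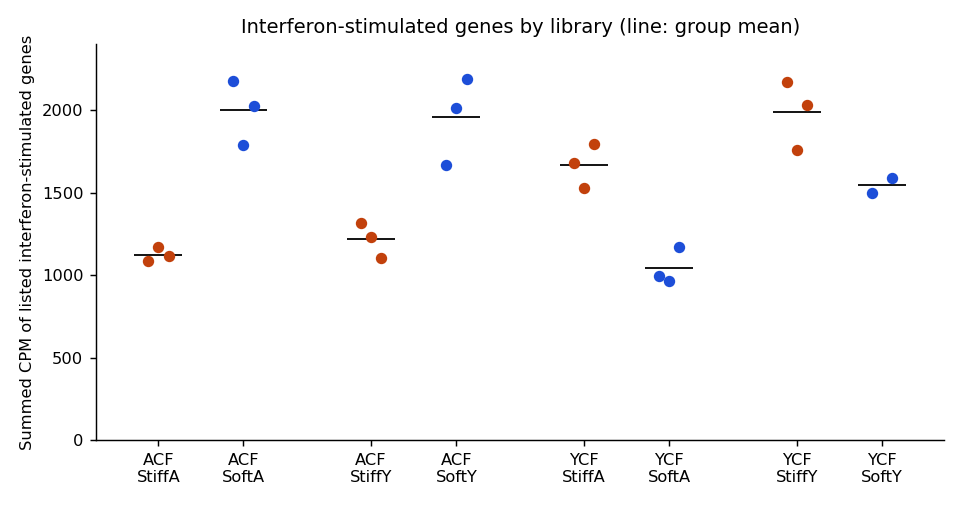
Summed CPM of the listed interferon-stimulated genes in each cultured library (points; orange, stiff; blue, soft), with a line at the group mean. Aged cells lie at 1089 to 1172 CPM on StiffA and 1790 to 2178 CPM on SoftA, and young cells at 1527 to 1794 CPM on StiffA and 965 to 1173 CPM on SoftA.

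The summed level of the listed genes was low in 3 of the 8 cultured groups. It was 1125 ± 43 CPM in ACF+StiffA, 1217 ± 107 CPM in ACF+StiffY and 1045 ± 112 CPM in YCF+SoftA (SD, n = 3 each), and the ranges of these groups overlap. The other groups were higher: 1666 ± 134 CPM in YCF+StiffA, 1957 ± 265 CPM in ACF+SoftY, 1998 ± 195 CPM in ACF+SoftA and 1985 ± 210 CPM in YCF+StiffY (n = 3 each), and 1501 and 1588 CPM in the 2 libraries of YCF+SoftY.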

How the data were processed

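RNA was counted in 23 cultured and 6 fresh libraries, and fresh cells are not analysed here. Per the labels' protocols, 20 ng of RNA went into each NEBNext low input library. STAR 2.7.8a and the build mm39 are named per the submitters' processing notes. The authors deposited raw counts for 55357 genes. The counter's version, its annotation and its strand setting were not given in the sources used here, so overlapping genes are uncertain.

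Counts were fitted over all 23 cultured libraries in 8 groups with edgeR 4.0.16 in R 4.3.3 (TMM, filterByExpr by group, quasi-likelihood test, Benjamini-Hochberg, calls at an adjusted p under 0.05). SE was taken from each log2 fold change and its F statistic. Alternatives were DESeq2 1.42.0, RLE factors, other filters, fewer libraries, a replicate block and leaving out single libraries. The members and the 51 gene lists were chosen with earlier results of these data known. Genes were named by rule: the 12 largest calls per direction with at least 10 CPM and no overlap (provisional gene names such as Gm4951 left out), up to 4 called members of a list or 2 of the most abundant, and 8 genes in any case. Other called genes, Irf9, the receptors, sensors and ligands were named after their values were seen. The fit was tested on simulated data. A few items are not reported here.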

Additional observations from a re-analysis of the deposited data

Results flagged for a closer look

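The stiffness effect on aged matrix differed from that on young matrix, within aged cells, by its own test (edgeR, adjusted p = 0.00455 each) for 3 genes. The difference in log2 fold change was -1.31 for Htra3, -1.03 for Fgl2 and -0.86 for Apoe.

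Between aged and young cells on aged matrix the stiffness effect differed by its own test for the genes below, among those named by rule or called in aged cells. The difference, aged minus young, was -3.46 for Ifit1, -3.22 for Cmpk2, -3.02 for Isg15, Usp18 and Gm4951, -2.94 for Ifi44, -2.83 for Oas1a and -2.65 for Irf7. It was -2.50 for Rtp4, Ifit3b and Oas2, -2.48 for Zbp1, -2.09 for Ifit3, -2.08 for Ddx60 and -2.05 for Gbp3. It was -1.87 for Oasl2, -1.63 for Rnf213, -1.45 for Bst2, -1.41 for Stat2, -1.37 for Parp11, -1.26 for Ifih1 and -0.78 for Sp100. Ccl2, a chemokine gene at -0.01 ± 0.08 in aged cells and -0.56 ± 0.08 in young cells, differed by 0.55 in the other direction. Adjusted p-values of edgeR's test ran up to 0.0222. Genes called in aged cells were chosen by libraries that enter this difference, so their number and the sizes are a description. Groups of 3 libraries are too small for a test of single outlying libraries.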

How the results depend on the processing

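The number of genes called for StiffA over SoftA in aged cells, 47, was 109 with no filter on low counts and 30 with the 6 libraries alone, and 23 to 32 with 1 library left out. In aged cells on young matrix, 7 genes became 4 to 6 with 1 library left out. In young cells on aged matrix, 27 became 78 with no filter, 1 with the 6 libraries alone and 10 to 25 with 1 left out. The difference between cell ages, 44, was 27 with its 12 libraries alone and 27 to 46 with 1 left out (27 without YCF+SoftA library 2). The difference between matrices, 3, was 11 by DESeq2, 23 with no filter, 5 with its 12 libraries alone and 3 with any 1 left out. Of the 47 called genes, 0 changed direction in any alternative. For named genes without a call, a change of sign was not counted. By DESeq2 aged cells on aged matrix had 64 calls, by RLE factors 47.

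The labels number the libraries from 1 in each group and do not say whether equal numbers share a preparation. Deviations of same-numbered StiffA and SoftA libraries from their group means had r = -0.064, 0.19 and 0.149. The values for libraries 2 and 3 were the highest of all pairs, while StiffA library 1 correlated best with SoftA library 2 (0.094). The main fit did not take the numbers as a pairing, and a shared preparation was not tested. With a replicate block 69 genes were called in place of 47, with the block on the 6 libraries alone 41, and for the difference between matrices 5 in place of 3. All 47 genes remained called with the block on 23 libraries. Depth limits low genes: at 10 CPM a library holds 13 to 28 counts.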
